A study of Mus musculus with 2 samples.

Results

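The 10 genes described here mark oligodendrocytes, the cells that wrap axons of the brain in myelin: Mbp, Mog, Mag, Mobp, Cnp, Olig1, Olig2, Sox10, Myrf and Opalin. They were chosen by name, and every peak that the authors' annotation assigned to one of these symbols was taken, which gave 46 peaks of 99782 annotated peaks. The peaks came from 1 CUT&Tag library made with an anti-FLAG antibody on hippocampal tissue of CamK-PARIS mice (strain C57BL/6J), and were called by the authors against 1 IgG library of the same tissue, strain and genotype. In CUT&Tag an antibody tethers the transposase Tn5 to chromatin, and the cut fragments are sequenced, so that coverage piles up where the antibody's target sits. The tagged protein is PARIS, a zinc-finger repressor of transcription. No sample without the CamK-PARIS genotype was analysed here, and the labels give neither the age nor the number of mice nor the cells in which the transgene is active. With 1 library per antibody no value below has a replicate error, peaks of 1 library are not replicates, and no test was made.

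As background, a Camk2a promoter is a common driver of transgenes in excitatory neurons of the forebrain and is not active in oligodendrocytes, which is why these genes are of interest in CamK-PARIS tissue; the labels do not say which driver CamK stands for. Oligodendrocyte identity is set by the transcription factors Olig1, Olig2 and Sox10. Sox10 switches on Myrf in differentiating cells, and Sox10 and Myrf together drive the genes of the myelin sheath. The sheath genes among the 10 are Mbp, which compacts the myelin membrane, Mobp, another basic protein of compact myelin, Cnp, an enzyme of the cytoplasmic channels of myelin, Mag and Mog, adhesion and surface proteins of its inner and outer faces, and Opalin, a membrane glycoprotein of oligodendrocytes. The files hold no RNA level, so whether oligodendrocytes were among the nuclei was not measured. Hippocampus is a mixture of cells, and fewer nuclei of a type and less signal per nucleus cannot be told apart in such a library.

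Of the 10 genes, 9 had at least 1 assigned peak, beside 71.0% of 21911 protein-coding genes. Mbp held 20 of the 46 peaks, Mobp 8, Myrf 4, Olig1, Olig2 and Opalin 3 each, Cnp and Mag 2 each, Mog 1 and Sox10 0. The median number of peaks was 3 over the 10 genes and 2 over all protein-coding genes, whose median length of 17.4 kb was close to the 15.6 kb of the 10. A peak within 1 kb of a transcription start site (TSS) was assigned to 3 of the 10 genes, Mbp, Mobp and Myrf, beside 41.6% of protein-coding genes. A peak in the top 10% of the list by the authors' maximum signal was assigned to 4 of the 10 (Mbp, Mobp, Cnp and Myrf), beside 24.5% of protein-coding genes. Each of these counts differed from its background share by less than 2 genes of 10.

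Signal here is the authors' coverage on a scale that the labels do not give. In most peaks of this list the coverage is flat from end to end, with a total signal of at least 99% of the maximum signal times the width. Such peaks are called constant-height peaks here, and the others peaks of varying height. Over all annotated peaks, those of constant height were 32 to 701 bp wide with maximum signals of 5 to 234. The others reached 6161 bp and 2395. What makes coverage flat was not tested, so the height of such a peak is given as coverage only. Of the 46 peaks, 24 (52.2%, exact 95% interval 36.9 to 67.1, counting error only) were of constant height, beside 63.3% of all annotated peaks. The other 22 belonged to 6 genes, Mbp with 9, Mobp with 6, Myrf with 3, Cnp with 2 and Olig2 and Mag with 1 each, and 50.9% of protein-coding genes had such a peak. All peaks of Mog, Olig1 and Opalin were of constant height. Some peaks counted as varying were near the cutoff, such as that of Mag, with 0.9572 of the maximum times the width. With a cutoff of 95% in place of 99% the constant-height share was 60.9%. For peaks within 1 kb of a TSS that were not of constant height the count stayed at 3 of the 10 genes, beside 28.3% of protein-coding genes. The maximum signal of the 46 peaks ranged from 9 to 343 with a median of 98, and that of all annotated peaks had a median of 101. The plot of maximum signal by gene shows that the tallest peaks belonged to Mbp, Cnp and Myrf.

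**Figure D1:**
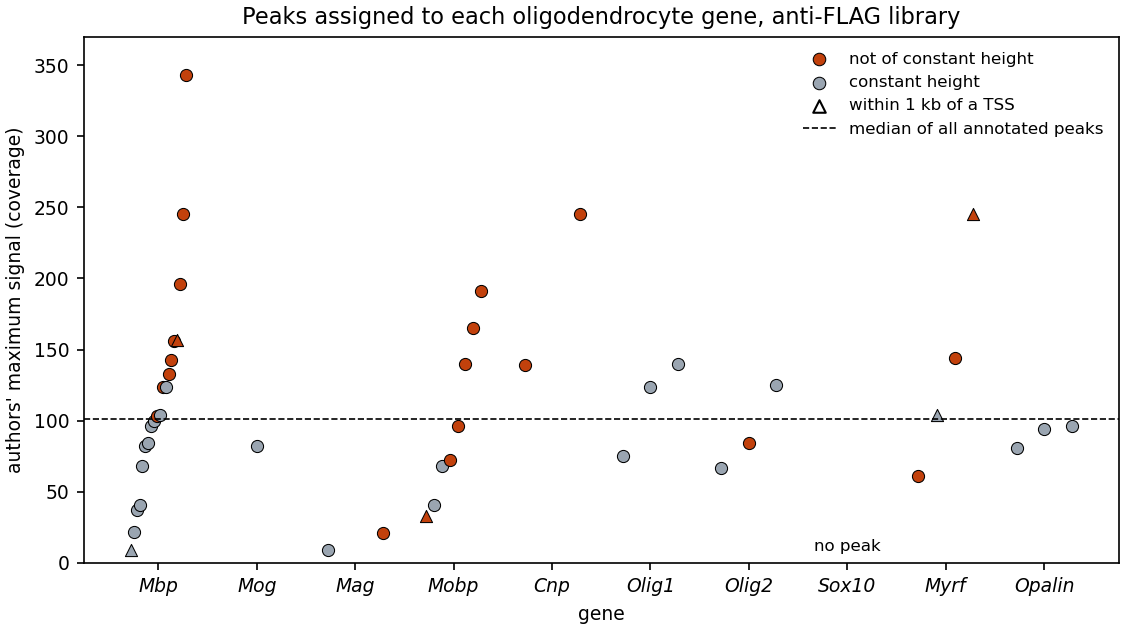
The authors' maximum signal (vertical axis, coverage) of each peak assigned to the 10 genes in the 1 anti-FLAG library, by gene (horizontal axis), with triangles for peaks within 1 kb of a TSS and color for shape. Mbp spans 9 to 343, the Mag peaks lie at 9 and 21, all peaks of Opalin lie below the dashed median of 101, and Sox10 has none.

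Sequences are shown for 5 sites on which the description turns: the start of Myrf, the highest peaks of Cnp, Mobp and Olig1, and one of the low peaks of Mag. Each is 200 bases of mm10, read from the RefSeq copy of GRCm38.p6 on the plus strand around the summit (the centre of the stretch where the signal is highest), except Myrf, for which the 200 bases just upstream of the gene start were read on the minus strand, the strand of the gene. They were chosen after the values were seen, and windows with bases of an annotated untranslated region were left out. Capitals mark matches to the motifs described further on, an E-box in Cnp and a SOX core, on the other strand, in Mag; the other 3 sequences hold none. The order is Myrf (chr19:10240749-10240948), Cnp (chr11:100564213-100564412), Mobp downstream (chr9:120213065-120213264), Olig1 (chr16:91284958-91285157) and Mag (chr7:30909625-30909824).
Myrf, upstream of the start: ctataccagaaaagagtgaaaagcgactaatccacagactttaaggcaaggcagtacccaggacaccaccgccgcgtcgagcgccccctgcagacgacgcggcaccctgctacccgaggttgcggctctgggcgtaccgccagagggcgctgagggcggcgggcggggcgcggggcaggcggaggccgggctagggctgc
Cnp, upstream: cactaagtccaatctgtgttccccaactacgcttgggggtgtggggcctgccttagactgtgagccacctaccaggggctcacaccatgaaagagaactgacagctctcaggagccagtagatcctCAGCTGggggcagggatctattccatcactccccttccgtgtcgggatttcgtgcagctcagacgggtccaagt
Mobp, downstream: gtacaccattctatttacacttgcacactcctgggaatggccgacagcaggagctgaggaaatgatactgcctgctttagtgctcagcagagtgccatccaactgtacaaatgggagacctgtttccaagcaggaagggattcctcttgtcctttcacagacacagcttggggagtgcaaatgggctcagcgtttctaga
Olig1, downstream: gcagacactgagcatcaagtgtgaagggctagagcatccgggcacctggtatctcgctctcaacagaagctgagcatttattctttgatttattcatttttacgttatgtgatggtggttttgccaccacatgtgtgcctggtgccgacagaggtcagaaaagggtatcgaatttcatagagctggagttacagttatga
Mag, intron: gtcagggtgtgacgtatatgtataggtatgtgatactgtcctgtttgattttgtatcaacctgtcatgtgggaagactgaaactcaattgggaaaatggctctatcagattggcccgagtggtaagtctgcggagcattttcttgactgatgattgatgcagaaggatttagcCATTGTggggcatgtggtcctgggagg

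Among the transcription factors, Myrf was the only gene of the 10 with a peak across its start. Myrf (ENSMUSG00000036098.15, chromosome 19, 10208272 to 10240748, minus strand) encodes a membrane-bound factor that is cleaved and enters the nucleus of the maturing oligodendrocyte. Its peak at 10240406 to 10241074 had a maximum signal of 245, higher than 95.3% of all peaks, and a total signal of 65323, which is 0.399 of the maximum times the width, so it was far from flat. Its summit lay 3 bp upstream of the gene start. The 200 bases upstream of that start, printed first above, had 68.5% GC and 21 CpG dinucleotides, an observed over expected CpG ratio of 0.901. In the window at the summit the ratio was 0.929, beside a median of 0.194 in 200 bp summit windows at all peaks. Only 24.6% of annotated peaks were in promoters, so this median mostly describes other sites, and a median over promoters was not computed. A constant-height peak of 104 (10216985 to 10217149) lay 379 bp from an internal start, 23.7 kb into the gene. The remaining Myrf peaks, with maximum signals of 61 and 144, lay 5069 and 7055 bp upstream of the start in the 3′ end of the neighbouring gene Dagla, the class the authors gave as 3′ UTR.

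Sox10, Olig1 and Olig2 had no peak at or inside the gene. Sox10 (ENSMUSG00000033006.10, chromosome 15, 79154908 to 79165240, minus strand) is an SRY-box factor of the oligodendrocyte lineage. No peak was assigned to it, and the nearest to any of its starts was 7087 bp away at 79172327 to 79172572, with a maximum signal of 87, assigned to the noncoding gene Gm10863. Olig2 (ENSMUSG00000039830.9, chromosome 16, 91225457 to 91228677, plus strand) and Olig1 (ENSMUSG00000046160.6, 91269772 to 91271933, plus strand) are neighbouring basic helix-loop-helix genes. The 3 peaks assigned to Olig2 lay 35.7, 51.1 and 64.0 kb upstream of it, with maximum signals of 125, 67 and 84, and the 3 of Olig1 lay 10.7, 15.3 and 31.8 kb downstream of its start inside the noncoding gene Gm15966, with maximum signals of 75, 140 and 124. Both genes therefore sat in 1 interval of 90.4 kb without any peak. That interval was longer than the interval around 78.8% of protein-coding gene starts, for which the median was 25.4 kb and the quartiles 2.87 and 73.8 kb, so it lay just beyond the upper quartile. For Sox10 the interval was 29.4 kb, near the median.

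**Figure D2:**
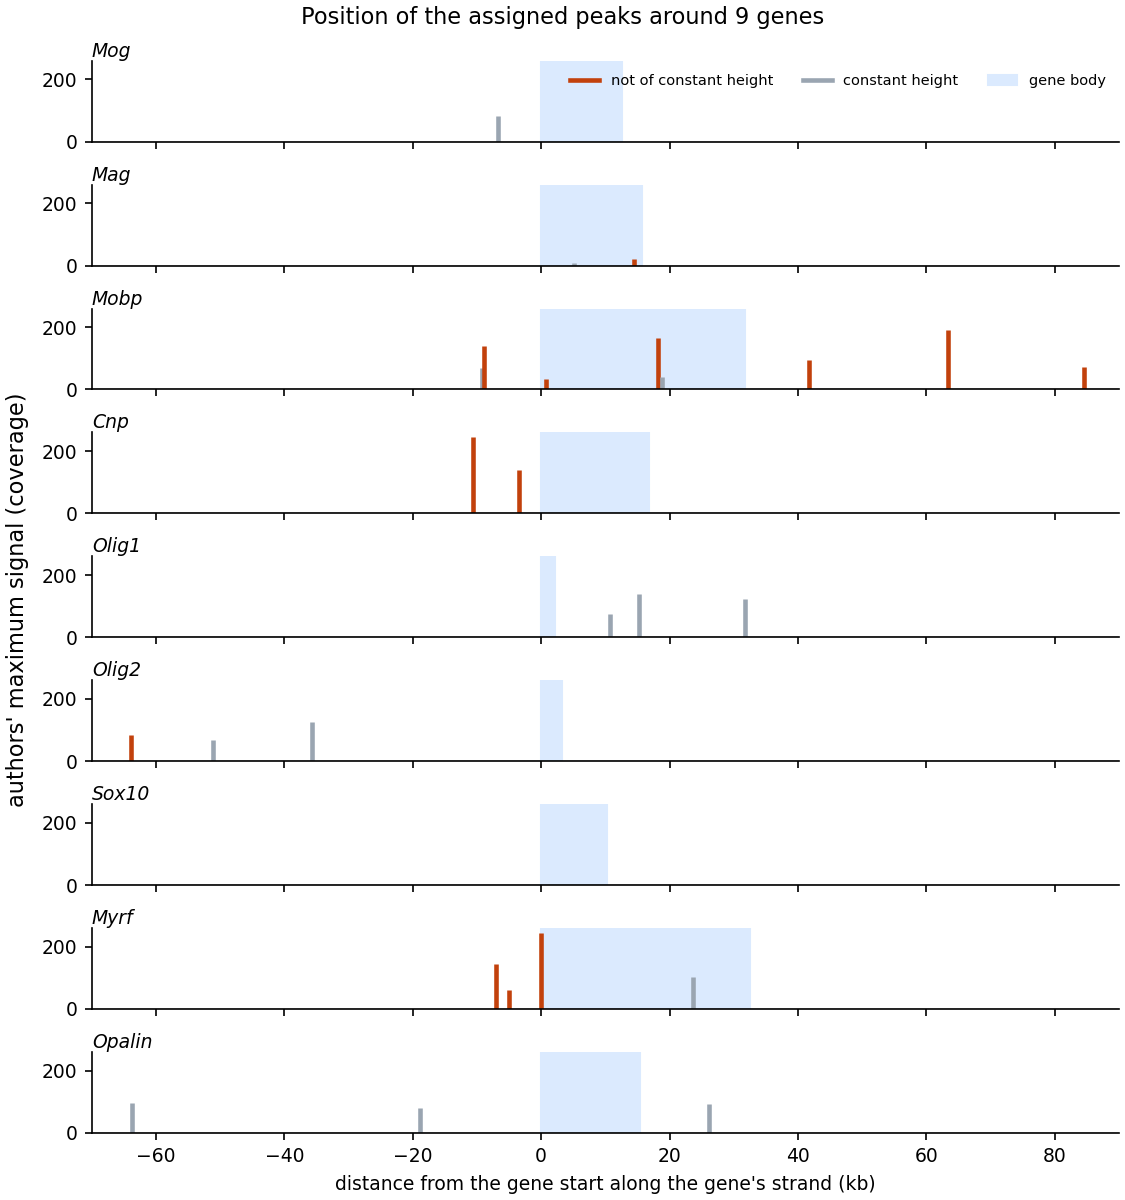
Position (horizontal axis, kb from the gene start along the gene's strand) and authors' maximum signal (vertical axis, coverage) of the peaks assigned to 9 of the genes, with the gene body shaded and bars coloured by shape. Only the Myrf start carries a bar at 0, Mag and Mobp have bars inside the gene near or past the start, and the peaks of Olig1, Olig2, Cnp, Mog and Opalin lie outside the gene.

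Of the sheath genes, Mbp had the most peaks. They were spread unevenly, with long stretches without a peak, such as that between 82485994 and 82512669. Mbp (ENSMUSG00000041607.17, chromosome 18, 82475146 to 82585637, plus strand, 110 kb) has 3 groups of annotated starts. The first, A, begins at 82475146 and gives the long Golli transcripts (4 transcripts), which are known from neurons and immune cells as well as from oligodendrocytes. The next, B, between 82554470 and 82554580, gives 11 transcripts and contains the starts of the classic myelin Mbp messages, 79.3 kb further on. Start C, at 82563262, belongs to 1 noncoding transcript. Of the 20 peaks, 1 lay upstream of A, 14 between A and B and 5 after B.

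The peak near start A was tall and the one near start B was among the lowest of the list. Near A, the peak at 82475574 to 82476152 had a maximum signal of 157, higher than 84.4% of all peaks, and a total signal of 76936; its summit lay 759 bp after A. Near B, the peak at 82553810 to 82554185 had a maximum signal of 9 and a total signal of 3382, higher than 0.496% and 0.139% of all peaks. It was of constant height, and its total signal was just above the 3329 that is the lowest in the list. The tallest peaks of the gene were in the intron between them. The peak at 82535288 to 82536805, 1518 bp wide, lay 17.8 kb before B with a maximum signal of 343, higher than 98.6% of all peaks, and a total signal of 186381. The peak at 82527821 to 82528699, 25.9 kb before B, reached 245, and the one at 82522441 to 82522557, 32.0 kb before B, reached 196. Further peaks of 133 and 124 that were not of constant height lay 21.9 and 19.9 kb before B, so that 5 of the 9 Mbp peaks of that shape stood within 32.0 kb before B. After B the only peak of that shape was 13.3 kb away with a maximum signal of 156, and the other 4 had maximum signals from 37 to 124.

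**Figure D3:**
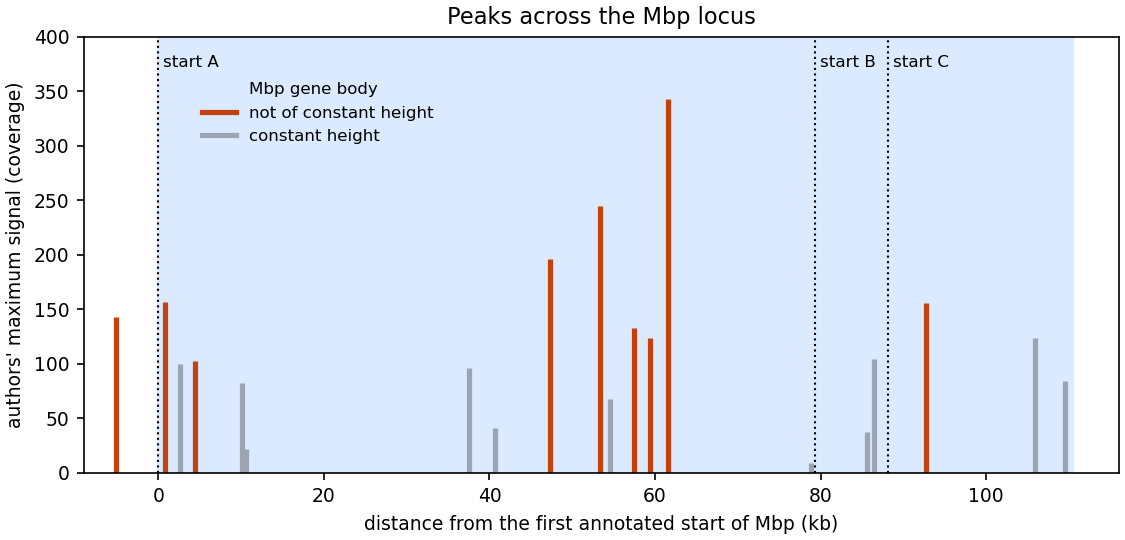
Authors' maximum signal (vertical axis, coverage) of the 20 Mbp peaks against the distance from the first annotated start (horizontal axis, kb), with dotted lines at the start groups A, B and C. The tallest bars, 196, 245 and 343, stand between 47.4 and 61.5 kb, before start B, where the bar is 9.

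Mbp is long, and long genes take more peaks. Its body held 19 peaks, 1.72 per 10 kb, beside 0.354 per 10 kb on its chromosome, a ratio of 4.85. The chromosome value includes stretches without genes. Such a density was not particular to Mbp: Cnp had 2.38 per 10 kb (ratio 4.32), all from peaks assigned to Dnajc7. Mag had 1.27 (2.94), Mobp 0.944 (2.03) and Myrf 0.308 (0.704), and the bodies of the remaining genes held 0. Among the 523 protein-coding genes of 100 to 120 kb, a class set after the values were seen, the median number of assigned peaks was 6 with quartiles of 3 and 11, and 94.3% had fewer than the 20 of Mbp. The share of genes in that class with fewer peaks in the body than Mbp was 96.6%.

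Mobp (ENSMUSG00000032517.16, chromosome 9, 120149707 to 120181484, plus strand) had 8 peaks, 6 of them of varying height. Among these 6, the peaks of 96 and 72 were nearly flat, with total signals of 0.9898 and 0.9893 of the maximum times the width. The peak nearest its start, at 120150305 to 120150550, was low, with a maximum signal of 33 and a total signal of 4664, higher than 8.22% and 3.52% of all peaks. Higher Mobp peaks lay elsewhere: 165 at 18.1 kb into the gene, in an untranslated exon by the authors' class, 140 at 8.87 kb upstream, and 191 at 63.5 kb from the start, beyond the gene's end in the noncoding gene Gm38642. The remaining 4 ranged from 41 to 96.

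Cnp (ENSMUSG00000006782.16, chromosome 11, 100574904 to 100591729, plus strand) had 2 assigned peaks, neither of constant height and both inside the upstream neighbour Ttc25. The one at 100564032 to 100564627, in intron 9 of 11 of Ttc25 and 10.6 kb before the Cnp start, had a maximum signal of 245, higher than 95.3% of all peaks. The other, at 100569947 to 100571757 and 3.46 kb before the start, reached 139 over 1811 bp and had a total signal of 112504, higher than 97.1% of all peaks. The body of Cnp held 4 peaks that the authors assigned to the overlapping gene Dnajc7, with maximum signals of 62, 81, 59 and 53, so that the symbol alone understates how many peaks lie within Cnp.

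Mag, Mog and Opalin had low or distant peaks. In Mag (ENSMUSG00000036634.15, chromosome 7, 30899176 to 30914873, minus strand) the peak in intron 5 of 12 (30909485 to 30909963) had a maximum signal of 9 and that in intron 11 (30900442 to 30900630) of 21, with total signals of 4303 and 3799, higher than 2.56% and 1.19% of all peaks. Mog (ENSMUSG00000076439.12, chromosome 17, 37010743 to 37023398, minus strand) had 1 peak of 73 bp (37030164 to 37030236), 6.80 kb upstream of its start, with a maximum signal of 82. A constant-height peak of 56 assigned to Zfp57 lay closer to the Mog body, 2063 bp beyond the gene's end. Opalin (ENSMUSG00000050121.9, chromosome 19, 41061710 to 41077113, minus strand) had maximum signals of 81, 94 and 96. These Opalin peaks lay in neighbouring genes, 18955 and 63837 bp upstream in Tll2 and 26122 bp past the start in Dntt. Over the 46 peaks, 6 (13.0%, exact 95% interval 4.94 to 26.3) were among the lowest 5% of the list by total signal: 2 each of Mbp, Mag and Mobp.

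Most of the 46 peaks lay away from starts. In the authors' classes 24 were intronic (52.2%, exact 95% interval 36.9 to 67.1, beside 38.0% of all annotated peaks), 8 were in promoters within 3 kb of a TSS (17.4%, 7.82 to 31.4, beside 24.6%), 7 were distal intergenic (15.2%, beside 31.9%) and 5 were in 3′ UTRs (10.9%, beside 1.75%), those of the neighbours Dagla and Ttc25 included. The promoter share rested on the rule: with any GENCODE start within 3 kb of the summit it was 28.3% (13 of 46), beside 29.7% of all annotated peaks. Among the 35 peaks that overlapped the GENCODE body or 5 kb flanks of a gene of the 10 it was 34.3%. Of peaks placed in the same way at any protein-coding gene, 35.9% were in promoters. The promoter peaks that this set adds were assigned to the neighbours Dnajc7 and Fen1, not to the 10 genes. Of the intronic peaks 13 were those of Mbp, and without Mbp the intronic share was 42.3% (23.4 to 63.1) of 26 peaks. Relative to the gene that each was assigned to, 25 peaks lay in the body, of which 19 were in Mbp, 14 upstream and 7 downstream. Of the 26 peaks that were not of Mbp, 13 lay inside the body of another gene.

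The 200 bp windows at the 46 peaks had a median GC content of 51.5%, beside 49.0% over 99704 windows at all peaks. Motifs were searched by exact letters on both strands, and a match is a description of letters only. The insulin response sequence, TATTTTT or TATTTTG, which has been reported as the element bound by PARIS, was in 1 of the 46 windows (2.17%, exact 95% interval 0.055 to 11.5), beside 9.97% of all windows; that window belonged to the Mbp peak 19.9 kb before start B. The SOX core, ACAATG or ACAAAG, was in 7 (15.2%, 6.34 to 28.9, beside 22.6%). The E-box letters CAGCTG or CAGATG, of the kind read by Olig factors, were in 11 (23.9%, 12.6 to 38.8, beside 26.2%), among them the Cnp window shown. CTGGNAC, a loose form of the Myrf motif with any base at N, was in 5 (10.9%, 3.62 to 23.6, beside 13.5%), 4 of them in Mbp. The tallest Mbp peak had both a SOX core and a CTGGNAC match, and the window across the Myrf start, at 80.5% GC, had none of the 4 motifs. The letters CAGCTG and CTGGNAC can share bases, and each motif was counted on its own.

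Among 30 other genes of the oligodendrocyte lineage and myelin, 26 had an assigned peak, 10 had one within 1 kb of a TSS (33.3%) and 8 had one there of varying height (26.7%), beside the background shares of 71.0%, 41.6% and 28.3%. High maximum signals within 1 kb were those of Hapln2, a link protein of the node of Ranvier, with 282, Nfasc, a cell adhesion gene that neurons also express, with 151, and Plekhb1 with 133. Pdgfra, the receptor that marks oligodendrocyte precursors, had 118, Pllp 113, Gpr37 84 and Gjb1 76. The peaks of Plekhb1 and Pdgfra within 1 kb were of constant height. Nkx2-2, Zfp488, Gpr17 and Olig3 had no assigned peak, though the body of Nkx2-2 held 2 peaks that were not assigned to it.

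The same counts were made in lists of markers of other cells, 10 genes each. Of the excitatory neuron markers 8 had a peak within 1 kb of a TSS and 7 had one of varying height there, with maximum signals of up to 362 for Nrgn and 300 for Camk2a, against 3 and 3 of the 10 oligodendrocyte genes, where the highest was the 245 of Myrf. Of the astrocyte markers 3 and 0 did (Aldh1l1 156, Gjb6 117), of the microglia markers 4 and 1 (Trem2 156) and of genes of other organs 1 and 0 (Nkx2-5 56). Camk2a itself had 22 assigned peaks, of which 12 were of varying height. Because a Camk2a promoter may be the driver here, its values may not compare with those of other markers. Whether transgene sequence adds to the coverage at Camk2a was not tested. The neuron list also had more assigned peaks, with a median of 8 per gene against 3, over genes of a median length of 20.1 kb against 15.6 kb. These are counts in 1 library of genes that were chosen with earlier results of these data known. The differences between lists were not tested.

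**Figure D4:**
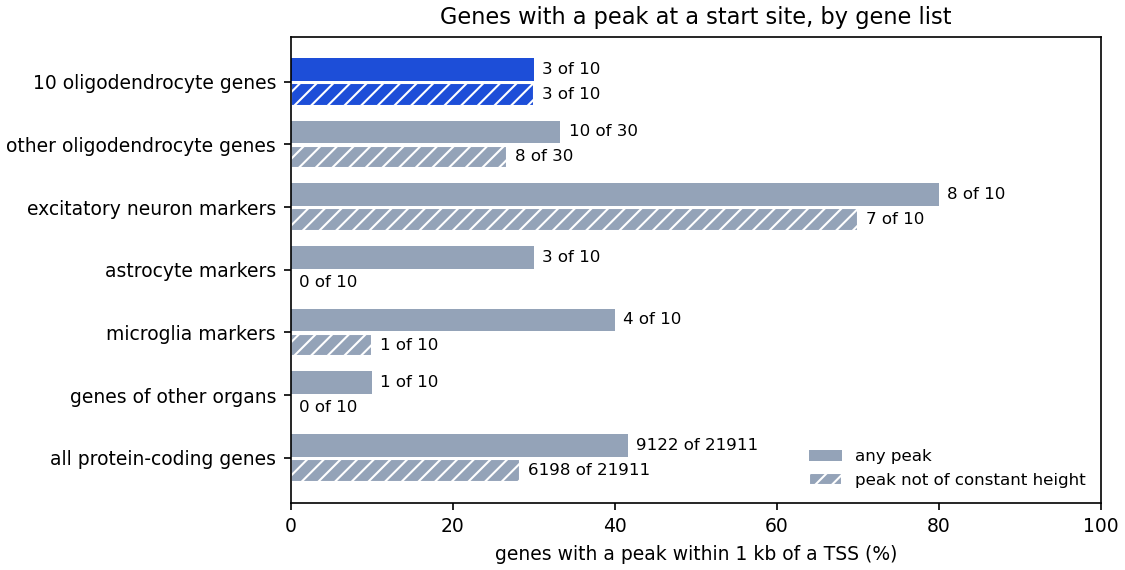
Percent of the genes of each list (horizontal axis) with a peak within 1 kb of a TSS, for any peak (plain bars) and for peaks that are not of constant height (hatched bars), with the counts beside the bars. The 10 oligodendrocyte genes stand at 3 of 10 in both, the excitatory neuron markers at 8 and 7 of 10, and all protein-coding genes at 41.6% and 28.3%.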

How the data were processed

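The deposited peak list and its annotation table were used. Per the labels' protocols, the authors used Bowtie2 on trimmed reads (mm10), dropped duplicates and reads of low quality, and ran SEACR with IgG as the control; versions, scaling, stringency and the annotation tool are not given in the sources used here. Per the deposited columns, signal is coverage: the authors' total signal is summed over the peak, and the maximum signal is its highest value. Sequencing depth is unknown, and IgG values enter only through the peak calling. Genes, starts and bodies came from GENCODE M21 and sequences from GRCm38.p6, both of the mm10 build, and all coordinates count from 1. The authors' symbol, class and TSS distance (from the region of maximum signal) assigned peaks to genes. A percentile is the share of all 99797 peaks with a lower value. Background shares count protein-coding genes by the same symbols. Python 3.11.15, pandas 2.3.3 and SciPy 1.17.1 were used, and the peak-shape and motif code was tested on simulated data. All 10 genes were named; of the other lineage genes the 8 with the highest maximum signal within 1 kb of a TSS and those without a peak, and of each other list the highest 2; some items that this rule selects are not reported here. The genes and lists were chosen with earlier results of these data known. No likeness across samples could be measured in 1 library.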

Additional observations from a re-analysis of the deposited data

How the results depend on the processing

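The number of peaks, the number of genes with a peak within 1 kb of a TSS, the constant-height share and the promoter share were recomputed under 13 alternative settings, each applied to those of the 4 values that it bears on, which gave 32 values. Of these, 10 moved, under 6 of the settings. Leaving out Mbp was chosen after seeing the data. The 46 peaks became 22 with maximum signal above the median, 6 in the top 10% by maximum signal, 7 in the top 10% by total signal, 22 with constant-height peaks left out and 26 without Mbp, each of which holds fewer peaks by construction. The 3 genes with a peak within 1 kb became 1 (Myrf) in the top 10% by maximum signal and stayed at 2 or 3 otherwise. The constant-height share of 52.2% became 27.3% with maximum signal above the median and 0% in both top 10% sets. Over all annotated peaks, those of constant height were also lower, with a median maximum signal of 91 against 134 for the others. Their median total signal was 19980 against 39550. A lower share in sets of high peaks is therefore not particular to these genes, and the share over all peaks in these sets was not computed. The promoter share of 17.4% became 34.3% with peaks overlapping the GENCODE gene body or its 5 kb flanks in place of the authors' symbol. That set holds the 4 Dnajc7 peaks within Cnp and a Fen1 peak near Myrf, and leaves out distant peaks. Its added promoter peaks were those of Dnajc7 and Fen1, not of the 10 genes. With any GENCODE start within 3 kb the share was 28.3%. The share over all peaks by the same rules was 35.9% and 29.7%, beside 24.6% in the authors' classes. A share counts as moved when it leaves its exact interval, and a count when it changes by more than 1.5 times. Intervals cover counting error over peaks only, and no error between animals or libraries can be had from 1 library.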
